A study of Homo sapiens with 4 samples.

Results

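The genes described are those of oxidative phosphorylation that carry the usual subunit symbols: the genes of the mitochondrial chromosome (MT-), and the nuclear NDUF genes of complex I, UQCR genes and CYC1 of complex III, COX4 to COX8 genes of complex IV and ATP5 genes of complex V. Members were taken by symbol from the protein-coding transcripts listed, and the values of a gene's transcripts were added up. This gave 88 genes of 13036 in the data set, 13 of them mitochondrially encoded and 75 nuclear. The nuclear members comprised 36 genes of complex I, 10 of complex III, 13 of complex IV and 16 of complex V, with NDUFA4 and NDUFA4L2 placed in complex IV. The readthrough gene ATP5J2-PTCD1 and COX7A2L, which acts in joining complexes, matched by symbol but are not subunits, so 86 members were.

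RNA was sequenced from HCCLM3, a human hepatoma cell line, in 4 libraries. The cells had been infected with a lentivirus carrying a control short hairpin (shCtrl, n = 2) or a hairpin against KIAA1429 (shKIAA1429, n = 2), so both groups carried a vector and differed in its hairpin. KIAA1429, listed as VIRMA, belongs to the complex that writes N6-methyladenosine on RNA, and the comparison asks which transcripts change when it is depleted. Both groups come from 1 cell line with 1 hairpin named per group, and the labels do not say whether replicates were separate cultures, so p-values measure only the spread between these samples, which may be technical. Values are FPKM, fragments scaled to transcript length and to the library's total. Read depth is unknown, so no counting error can be attached to a value. In every sentence with 4 values, the order is shCtrl replicate 1, shCtrl replicate 2, shKIAA1429 replicate 1 and shKIAA1429 replicate 2.

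The targeted gene was checked first. VIRMA measured 9.02, 14.1, 5.81 and 8.52 FPKM. Both shKIAA1429 values were below both shCtrl values, by little between 9.02 and 8.52, and the log2 fold change was -0.61 (SE 0.28) with an adjusted p = 0.897 in limma. The summed FPKM of all listed transcripts was 370253.5, 374278.4, 390224.4 and 382016.4, so it was higher in both shKIAA1429 libraries. Libraries of one group were not more alike than libraries of different groups, with Pearson correlations over genes of 0.969 and 0.967 within groups and 0.959 to 0.973 between them. The highest were those of the same-numbered libraries across groups, 0.973 for replicates 1 and 0.972 for replicates 2. The differently numbered libraries across groups gave 0.968 and 0.959. Of 11 hepatocyte and hepatoma markers, SERPINA1 was the 1 among the rows analysed here, at 3.34 to 5.63 FPKM, while ALB, AFP, the apolipoprotein genes, TTR and HNF4A were not. Of 5 epithelial markers 3 were listed, the keratins KRT8 at 1019 to 1176 FPKM, KRT18 at 971 to 1073, and KRT19 at 364, 350, 461 and 458, where both shKIAA1429 values lay above both controls. EPCAM and CDH1 were not among the rows analysed here. Of the fibroblast markers 4 of 5 were listed, with summed FPKM of 16.1 to 17.7 in shCtrl and 12.6 to 14.6 in shKIAA1429. The lower sum lay in LUM, at 7.92, 7.04, 2.73 and 2.88 FPKM. COL1A1 (3.54, 4.95, 4.90 and 6.76), PDGFRB (5.14, 3.99, 4.75 and 4.70) and DCN (1.06, 0.12, 0.18 and 0.25) had overlapping groups. Of the leukocyte markers 1 of 4 was listed (CD68, 44.1 to 52.3 FPKM) and of the endothelial markers 0 of 4. The part of these differences in the results was not tested.

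Oxidative phosphorylation is carried by large complexes of the inner mitochondrial membrane. Complexes I, III and IV pass electrons from NADH and ubiquinol to oxygen and pump protons, and complex V, the ATP synthase, uses the proton gradient to make ATP. Complexes I, III, IV and V are built from subunits of both genomes. The mitochondrial genes are read as long transcripts from both strands that are cut into single messages, whereas each nuclear gene has a promoter of its own, and its protein is imported. Complex II is nuclear throughout and is described with the other genes of the pathway.

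The mitochondrial genes were each listed as 1 transcript, and their start, end and strand in the files (GRCh37) matched the annotation in 13 of 13. Genes lie so close that some share bases, which matters for reading their values apart. The 46 bases shared by MT-ATP8 and MT-ATP6 (chrM:8507-8592, plus strand, with 20 bases on each side) and the 7 shared by MT-ND4L and MT-ND4 (chrM:10740-10786, plus strand) are shown in capitals. The capitals of each run begin with the start codon of the second gene and end with the stop codon of the first.
MT-ATP8 and MT-ATP6: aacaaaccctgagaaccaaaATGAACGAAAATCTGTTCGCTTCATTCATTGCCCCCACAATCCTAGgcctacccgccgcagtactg
MT-ND4L and MT-ND4: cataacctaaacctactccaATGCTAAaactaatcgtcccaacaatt
MT-ATP6 (681 bases, chrM:8527-9207) and MT-CO3 share 1 base. MT-ND6, the 1 protein gene on the minus strand, directly follows the end of MT-ND5 on the other strand. The strand rule of the counting is not given in the sources used here, so reads from MT-ND6 and from plus-strand RNA over the same positions cannot be told apart.

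Mitochondrially encoded genes were far more abundant than nuclear members in all 4 libraries. The median over genes of the mean FPKM was 2357 for the 13 mitochondrial genes and 39.6 for the 75 nuclear genes, a 59.5-fold difference per length. Mitochondrial members took 90.0%, 89.0%, 90.9% and 90.0% of the FPKM of all members. As a share of the FPKM of all listed transcripts they took 9.44%, 9.29%, 10.6% and 9.34%, while nuclear members took 1.05%, 1.15%, 1.06% and 1.04%. The gap between genomes thus exceeded the spread between libraries by a wide margin, and even MT-ND6, the lowest mitochondrial gene at a mean of 296 FPKM, exceeded COX6A1, the highest nuclear member at 241 FPKM. Their values did not overlap, since MT-ND6 was at 268.8 FPKM or more and COX6A1 at 246.4 or less. Reads of plus-strand RNA may be part of the MT-ND6 value, as said above.

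**Figure D1:**
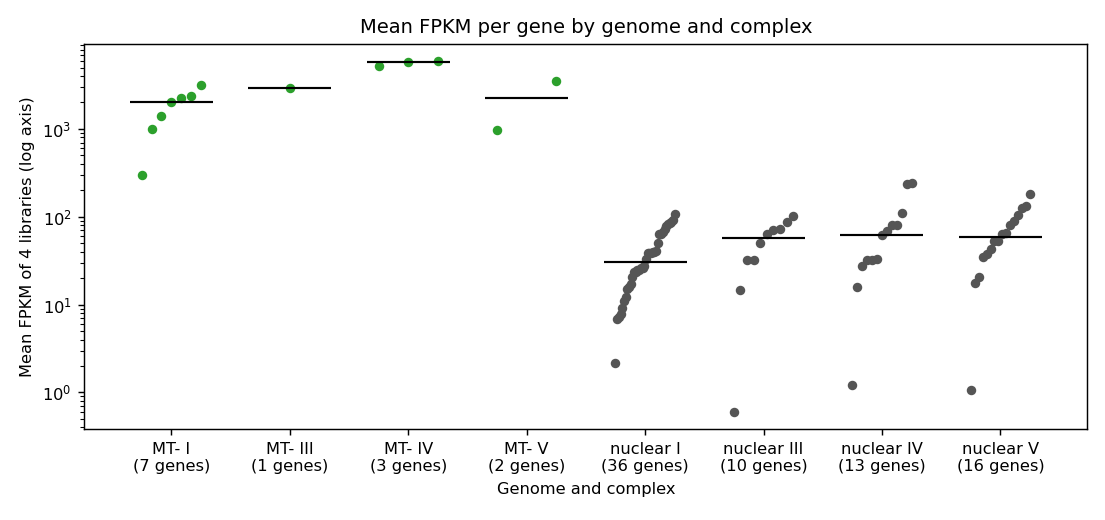
Mean FPKM over the 4 libraries (vertical log axis) of each of the 88 members (points), by genome and complex, with the median of each set as a line. The mitochondrial genes (MT-, green) all lie above the nuclear genes (grey), at medians of 2357 and 39.6 FPKM.

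Among the mitochondrial genes, the 3 core subunits of complex IV, the cytochrome c oxidase, had the highest levels, with means of 5860 FPKM for MT-CO2, 5727 for MT-CO3 and 5187 for MT-CO1. MT-ATP8, a membrane subunit of the ATP synthase, followed at 3549, then MT-ND4 at 3139 and MT-CYB, the cytochrome b of complex III, at 2913. MT-ND1 (2357), MT-ND2 (2243) and MT-ND5 (2044), membrane subunits of complex I, came next. Lower still were MT-ND4L (1406), MT-ND3 (1005), MT-ATP6 (967) and MT-ND6 (296). Over the 4 libraries, neighbours in this order overlapped except at MT-CO1 and MT-ATP8, MT-ND5 and MT-ND4L, MT-ND4L and MT-ND3, and MT-ATP6 and MT-ND6.

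Genes cut from the same long transcript differed in FPKM, also where they share bases. MT-ATP8 exceeded MT-ATP6 by 3.74, 3.77, 3.60 and 3.61 times, although both lie on 1 message and share the 46 bases printed above. MT-ATP8 is 207 bases long. MT-ND4L measured 0.43, 0.49, 0.45 and 0.43 of MT-ND4. The ratio of MT-ND6 to MT-ND5, its neighbour on the opposite strand, was 0.130, 0.157, 0.131 and 0.164, so it was higher in both replicates 2 than in both replicates 1.

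**Figure D2:**
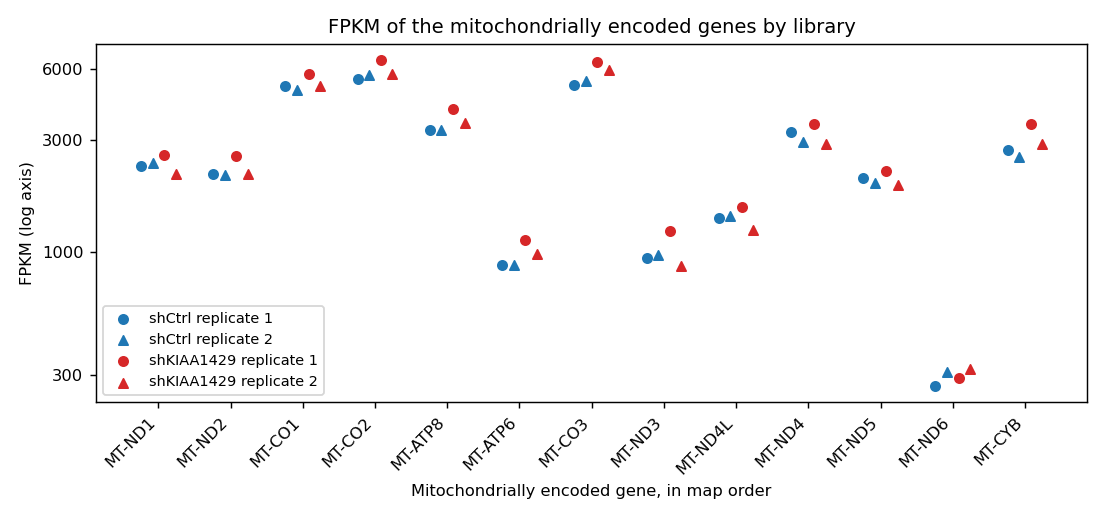
FPKM (vertical log axis) of the 13 mitochondrially encoded genes in map order, with blue for shCtrl, red for shKIAA1429, circles for replicate 1 and triangles for replicate 2. The shKIAA1429 replicate 1 library holds the highest value of 12 genes, and MT-ND6 is highest in shKIAA1429 replicate 2. Over all 10781 genes tested, shKIAA1429 replicate 1 was highest in 2695.

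In the comparison of shKIAA1429 with shCtrl, no member passed the thresholds (adjusted p below 0.05 with a log2 fold change beyond 1 in either direction), and 0 of 10781 genes did in all (0.0%). The study set the same thresholds with DESeq on read counts and reported differentially expressed genes. The 0 here holds for limma on FPKM only. Of the 88 members, 86 passed the filter of 1 FPKM in at least 2 libraries. UQCRHL and ATP5J2-PTCD1 did not. The lowest adjusted p of a member was 0.821 in limma, for NDUFC1, whose log2 fold change was 1.41. Before adjustment, 2 members of 86, NDUFC1 and MT-CO3, had p below 0.05, against 5.93% of all genes tested. Both shKIAA1429 values lay above both shCtrl values in 12 of 86 members, against 16.6% of all genes, and below in 7, against 17.1%. These shares were no higher than in the whole table. The genomes differed in which genes they were: of the mitochondrial genes 6 of 13 lay above and 0 below, and of the nuclear genes tested 6 of 73 lay above and 7 below. That difference between genomes was not tested. The values counted were not scaled to equal summed FPKM, which was higher in both shKIAA1429 libraries. Scaled to equal sums, MT-CO1, MT-CO2, COX4I1 and COX6C would no longer lie above. In bulk RNA, less of a transcript per cell and fewer cells holding it cannot be told apart.

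**Figure D3:**
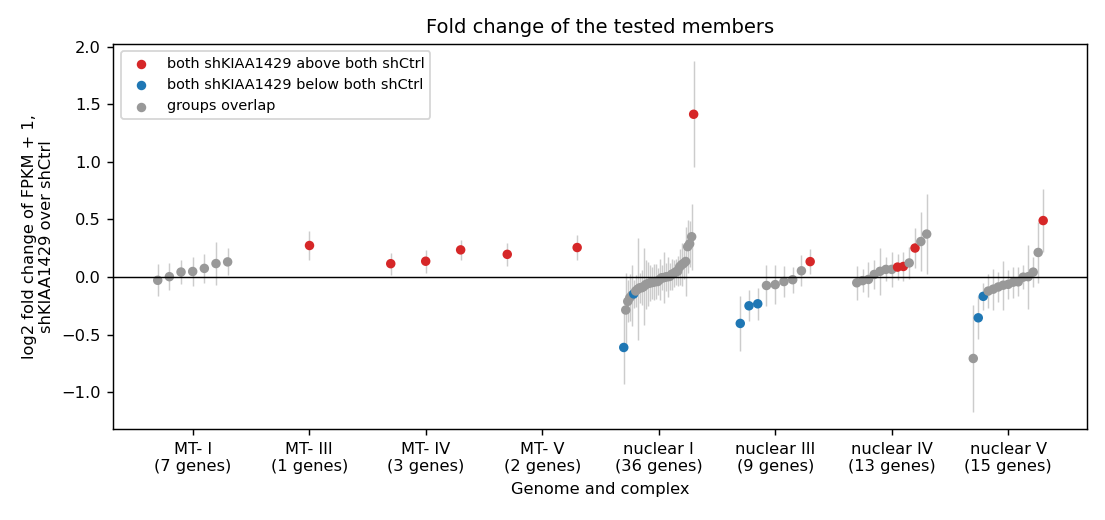
Log2 fold change of FPKM + 1, shKIAA1429 over shCtrl (vertical axis), of the 86 tested members by genome and complex, with bars of 1 SE from limma. Red and blue points are members whose groups did not overlap (12 above, 7 below), and no member passed the thresholds, NDUFC1 at 1.41 having an adjusted p = 0.821.

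Mitochondrial genes of complexes III, IV and V all had higher FPKM in both shKIAA1429 libraries, and the 7 of complex I had overlapping groups. The summed FPKM of all listed transcripts was also higher in both shKIAA1429 libraries. The gaps of MT-CO1 and MT-CO2 were smaller in proportion than the gaps between the sums of the same libraries. Scaled to equal sums, both genes would have overlapping groups. MT-CO3, a core subunit of complex IV, measured 5148, 5372, 6446 and 5942 FPKM. The groups did not overlap, and its log2 fold change was 0.23 (SE 0.085, unadjusted p = 0.0433, adjusted p = 0.838 in limma). MT-CO1, which holds the site of oxygen reduction, measured 5072, 4880, 5716 and 5079 FPKM, so shKIAA1429 replicate 2 stood above shCtrl replicate 1 by a few units. MT-CO2, which takes electrons from cytochrome c, measured 5470, 5686, 6550 and 5735 FPKM. Its separation likewise rested on a small gap between shCtrl replicate 2 and shKIAA1429 replicate 2. MT-CYB measured 2707, 2550, 3522 and 2872 FPKM, a log2 fold change of 0.28 (SE 0.13). MT-ATP6, which forms the proton path of the ATP synthase, measured 882.7, 877.6, 1126 and 980.4 FPKM, a log2 fold change of 0.26 (SE 0.11). MT-ATP8 measured 3298, 3310, 4049 and 3539 FPKM, a log2 fold change of 0.20 (SE 0.10). In complex V the shCtrl libraries lay close together and both shKIAA1429 libraries above them, and the adjusted p in limma was 0.870 for MT-ATP6 and 0.912 for MT-ATP8. Without shKIAA1429 replicate 1 the log2 fold changes were 0.03 for MT-CO1, 0.04 for MT-CO2, 0.18 for MT-CO3, 0.13 for MT-CYB, 0.16 for MT-ATP6 and 0.10 for MT-ATP8.

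For complex I genes of the mitochondrial chromosome, the values of the groups overlapped in 7 of 7. MT-ND1, at the foot of the membrane arm, measured 2315, 2386, 2576 and 2151 FPKM, and MT-ND2 measured 2157, 2118, 2559 and 2140. MT-ND4 measured 3240, 2926, 3496 and 2896 FPKM and MT-ND5, both of them proton-pumping subunits, 2062, 1962, 2216 and 1935. In these 4 genes shKIAA1429 replicate 1 was the highest library, and replicate 2 of the same group lay among or below the controls. MT-ND3 measured 941.5, 972.1, 1232 and 872.5 FPKM and MT-ND4L 1402, 1429, 1556 and 1236, with the same order of the shKIAA1429 libraries. MT-ND6 measured 268.8, 307.9, 289.6 and 316.9 FPKM, with replicates 2 above replicates 1 in both groups. Log2 fold changes of the 7 ran from -0.03 to 0.13 with a median of 0.05. Those of the 6 genes of complexes III, IV and V ran from 0.11 to 0.28 with a median of 0.22, beside a median of -0.01 over all genes tested.

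The makeup of mitochondrial FPKM differed accordingly. Complex I genes took 35.4%, 34.8%, 33.7% and 32.3% of it, so both shKIAA1429 libraries lay below both controls. Complex V genes took 11.96%, 12.04%, 12.5% and 12.7%, complex III 7.74%, 7.33%, 8.52% and 8.05%, and complex IV 44.9%, 45.8%, 45.3% and 46.9%. Shares within the mitochondrial set do not depend on the library's total, and they must sum to the whole, so a larger share of one complex lowers the others. The group means differed by -2.09 percentage points for complex I (35.1% ± 0.444 in shCtrl against 33.0% ± 0.947 in shKIAA1429, SD, n = 2).

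Summed over the 13 genes, mitochondrial FPKM was 34963.7, 34776.3, 41333.4 and 35695.3. The means were 34870 ± 133 in shCtrl and 38514 ± 3987 in shKIAA1429 (SD, n = 2), and the difference came largely from shKIAA1429 replicate 1. As a share of all listed FPKM the difference was 0.601 percentage points, and without that library it was -0.023. The median log2 fold change of the mitochondrial genes was 0.12 with all libraries, 12 of 13 being above 0, and 0.03 without shKIAA1429 replicate 1.

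The sum of the nuclear members overlapped between groups. Their summed FPKM was 3891.7, 4302.7, 4138.7 and 3981.6, with means of 4097 ± 291 in shCtrl and 4060 ± 111 in shKIAA1429 (SD, n = 2). The highest and the lowest library were both controls. Of 73 tested nuclear members, 31 had a log2 fold change above 0 and 42 below, with a median of -0.02, which upper quartile scaling moved to 0.003. The library with the highest value was shCtrl replicate 2 in 37 of 73, against 2933 of all 10781 genes tested. Over all genes tested, 5117 were above 0 and 5664 below. By complex, the median was -0.03 in complex I, -0.07 in complex III, 0.07 in complex IV and -0.06 in complex V. In complex III 7 of 9 tested genes were below 0, and in complex IV 10 of 13 above.

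The ratio of mitochondrial to nuclear FPKM is free of each library's total. Over all members it was 8.98, 8.08, 9.99 and 8.96, so shKIAA1429 replicate 2 did not exceed shCtrl replicate 1. Within complex I it was 8.88, 8.12, 9.88 and 8.20, and the groups overlapped. In complex III the ratio of MT-CYB to its 10 nuclear partners was 5.17, 4.63, 7.004 and 5.42. Complex IV gave 16.1, 15.5, 17.5 and 16.6, and complex V 4.18, 3.40, 4.48 and 4.37. In these 3 complexes both shKIAA1429 libraries lay above both controls, by 0.33, 0.11 and 0.23 in mean log2 ratio. Leaving out each library in turn gave 0.15 to 0.52 in complex III, lowest without shKIAA1429 replicate 1, 0.070 to 0.146 in complex IV, lowest without the same library, and 0.080 to 0.381 in complex V, lowest without shCtrl replicate 2. In complex I it gave -0.050 to 0.219. The difference over all members was 0.15, and leaving out each library in turn gave 0.073 to 0.229. Sums over members were given no test, and 2 libraries a group allow no firm statement on differences of this size.

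**Figure D4:**
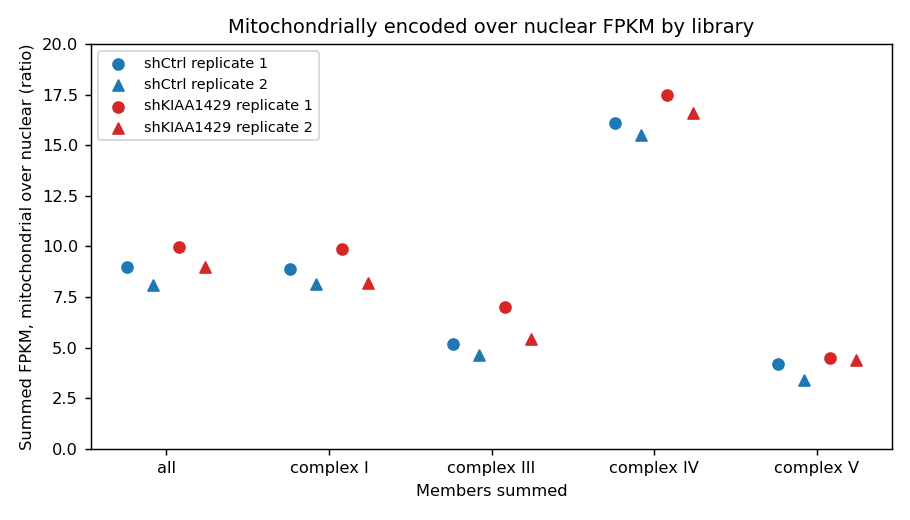
Summed FPKM of mitochondrially encoded members divided by that of nuclear members (vertical axis, ratio), for all members and by complex, with 1 point per library (blue shCtrl, red shKIAA1429, circles replicate 1, triangles replicate 2). Complex IV has the highest ratios, 15.5 to 17.5, and in complexes III, IV and V both shKIAA1429 points lie above both shCtrl points.

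Complex I takes electrons from NADH through its peripheral arm, which is nuclear. NDUFV1, which binds NADH and the flavin, measured 49.1, 37.5, 34.4 and 39.6 FPKM, and its partner NDUFV2 measured 37.6, 42.7, 35.9 and 42.2. NDUFS3 (22.2, 23.4, 26.5 and 23.1 FPKM) and NDUFS7 (19.8, 10.8, 16.1 and 16.3), core subunits on the way to ubiquinone, had overlapping groups. NDUFS8, an iron-sulfur subunit, was the most abundant nuclear member of the complex at 106.0, 110.5, 108.9 and 106.5 FPKM. Its libraries differed little. The largest subunit of the arm, NDUFS1, measured 23.2, 12.6, 10.9 and 22.7 FPKM, with shCtrl replicate 1 and shKIAA1429 replicate 2 at the higher level. In the accessory set, NDUFA3 gave the lowest log2 fold change, -0.61 (SE 0.31, adjusted p = 0.917 in limma), from 22.4, 38.0, 15.7 and 22.3 FPKM. Its groups were separated by the small gap between shCtrl replicate 1 and shKIAA1429 replicate 2, and without shCtrl replicate 2 the value was -0.24. NDUFB7 (94.1, 99.2, 91.6 and 83.0 FPKM) was the other nuclear complex I gene whose shKIAA1429 values lay below both controls.

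NDUFC1, a small accessory subunit (chr4:140211071-140223705, minus strand), gave the largest log2 fold change of any member, and its value turned on which transcripts were added up. Its 2 protein-coding transcripts summed to 0.0949, 1.57, 4.28 and 2.78 FPKM, the lowest level in the complex. The log2 fold change was 1.41 (SE 0.46, unadjusted p = 0.0302, adjusted p = 0.821 in limma), with both shKIAA1429 libraries above both controls. The transcript with most FPKM, NDUFC1-202, is annotated as a processed transcript and measured 22.0, 16.7, 10.6 and 12.2 FPKM. With all listed transcripts added, the gene measured 24.7, 23.0, 22.6 and 18.7 FPKM and the log2 fold change was -0.20. The sign thus differed between the protein-coding sum and the sum of all listed transcripts, and the cause was not tested. Without shCtrl replicate 1 the protein-coding value was 0.80.

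Complex III passes electrons from ubiquinol to cytochrome c. CYC1, the cytochrome c1 of the complex, measured 84.8, 71.6, 66.0 and 64.7 FPKM, a log2 fold change of -0.25 (SE 0.14, adjusted p = 0.926 in limma), with both shKIAA1429 libraries below both controls. Without shCtrl replicate 1 it was -0.13. UQCRC2, a core protein facing the matrix, measured 35.4, 35.1, 27.5 and 32.4 FPKM and also did not overlap, its log2 fold change being -0.23 with all libraries and -0.12 without shKIAA1429 replicate 1. Its partner UQCRC1 measured 69.5, 73.4, 71.0 and 69.5 FPKM, and the Rieske iron-sulfur protein UQCRFS1 29.8, 37.1, 28.9 and 34.4, with overlapping groups. UQCRB, a ubiquinone-binding subunit, had the lowest log2 fold change of the complex, -0.40 (SE 0.24), from 16.0, 17.2, 9.75 and 15.5 FPKM. Without shKIAA1429 replicate 1 it was -0.097, and in that library the transcript UQCRB-204 measured 2.56 FPKM against 9.85 to 11.1 FPKM in the others. UQCRQ had the highest, 0.13, at 83.5, 84.8, 94.0 and 90.8 FPKM. The hinge protein gene UQCRH was the most abundant nuclear member of the complex, at 92.5, 115.4, 90.5 and 107.3 FPKM, with replicates 2 above replicates 1. Its near copy UQCRHL stayed at 0.549 to 0.640 FPKM, and reads of these 2 genes may be split between them.

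Complex IV nuclear subunits surround the core of MT-CO1, MT-CO2 and MT-CO3. COX4I1 measured 32.35, 30.4, 34.6 and 32.37 FPKM, COX5A 59.1, 65.6, 61.1 and 65.4, and COX5B 78.8, 76.4, 90.5 and 73.0. COX4I1 did not overlap by a narrow gap, which would close at equal summed FPKM, and COX5A and COX5B did. COX6A1 was the highest nuclear member of all at 241.4, 246.4, 242.1 and 234.9 FPKM. Isoforms known from muscle, lung or testis (COX4I2, COX6A2, COX6B2, COX7A1) were not among the rows analysed here. COX6B1 measured 100.4, 124.6, 107.7 and 112.8 FPKM. COX7A2 had the lowest log2 fold change, -0.05, at 32.6, 33.9, 29.3 and 35.1 FPKM, and COX7A2L measured 53.4, 69.3, 93.4 and 61.1. NDUFA4 measured 25.3, 27.9, 27.6 and 30.4 FPKM, and its paralog NDUFA4L2, known as a hypoxia-induced gene, had the highest log2 fold change of the complex, 0.37 (SE 0.35), at only 1.28, 0.542, 2.18 and 0.855 FPKM. Groups overlapped in COX6B1, COX7A2, COX7A2L, NDUFA4 and NDUFA4L2. COX6C (33.1, 25.99, 37.1 and 33.2 FPKM) and COX7C (77.8, 76.9, 82.9 and 81.3) were the remaining nuclear members of the complex with both shKIAA1429 values above both controls. The narrow gap of COX6C would also close at equal summed FPKM.

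Complex V joins a catalytic head to a membrane rotor. ATP5B, the catalytic beta subunit and the most abundant nuclear member of the complex, measured 147.3, 217.9, 217.3 and 148.2 FPKM. The libraries fell into a higher and a lower pair that each held 1 library of each group, and the log2 fold change was 0.00 (SE 0.28). With all its listed transcripts added, ATP5B measured 241.2, 309.9, 221.5 and 233.1 FPKM, both shKIAA1429 values being below both controls, and the log2 fold change was -0.27 (SE 0.15, adjusted p = 0.949 in limma). ATP5A1, the alpha subunit, measured 74.3, 109.6, 88.6 and 83.2 FPKM. ATP5C1, the gamma subunit of the central stalk, measured 66.2, 71.4, 59.6 and 62.6 FPKM, and ATP5D, the delta subunit, 43.5, 44.8, 44.4 and 40.1. ATP5C1 was among the members whose shKIAA1429 values lay below both controls. ATP5F1, of the peripheral stalk, was another, at 18.03, 21.9, 13.6 and 17.2 FPKM, a log2 fold change of -0.35 (SE 0.19, adjusted p = 0.921 in limma). With all its listed transcripts added, it measured 51.3, 48.9, 52.0 and 63.2 FPKM and the log2 fold change was 0.19. ATP5O, also of the peripheral stalk, had the highest log2 fold change, 0.49 (SE 0.27), at 40.7, 44.99, 78.3 and 46.7 FPKM. Without shKIAA1429 replicate 1 its value was 0.12.

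The c-ring of the rotor is encoded by 3 genes with the same mature protein, ATP5G1, ATP5G2 and ATP5G3. ATP5G1 measured 73.4, 92.7, 69.8 and 84.0 FPKM, and ATP5G2 90.8, 99.5, 141.8 and 85.7. ATP5G3 measured 24.9, 64.8, 22.5 and 26.1 FPKM, the lowest log2 fold change among nuclear members at -0.71 (SE 0.46, adjusted p = 0.943 in limma). Here the shCtrl replicate 2 library stood alone, the value without it being -0.035, and the transcript ATP5G3-202 carried it with 6.64, 50.6, 4.74 and 6.36 FPKM. Groups overlapped in all 3 genes, and the gene with the largest share of their FPKM was ATP5G2 in each library.

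Several of these library differences lay in single transcripts. Among the 228 protein-coding transcripts of members, 5 were below 0.1 FPKM in 1 library and at 5 or more in another (2.19%, against 2.17% of all 30860 protein-coding transcripts). NDUFS1-205 measured 15.2, 0, 0 and 16.9 FPKM, and ATP5A1-213 measured 0.042, 26.9, 31.2 and 0.067. In both, shCtrl replicate 1 matched shKIAA1429 replicate 2, and shCtrl replicate 2 matched shKIAA1429 replicate 1, so the split crossed the groups. NDUFA6-202 measured 10.1, 0.052, 0.069 and 0.136 FPKM, NDUFC2-202 measured 4.65, 5.19, 5.87 and 0, and COX7A2-201 1.51, 6.13, 0.012 and 3.47. A 0 in a file of this kind can be a failed estimate, so these transcripts are only listed at 0. The median SD between replicates on the log2 scale was 0.118 for the 19 tested nuclear members with 1 protein-coding transcript and 0.152 for the 54 with 2 or more. It was 0.117 for the mitochondrial genes and 0.168 for all genes tested.

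**Figure D5:**
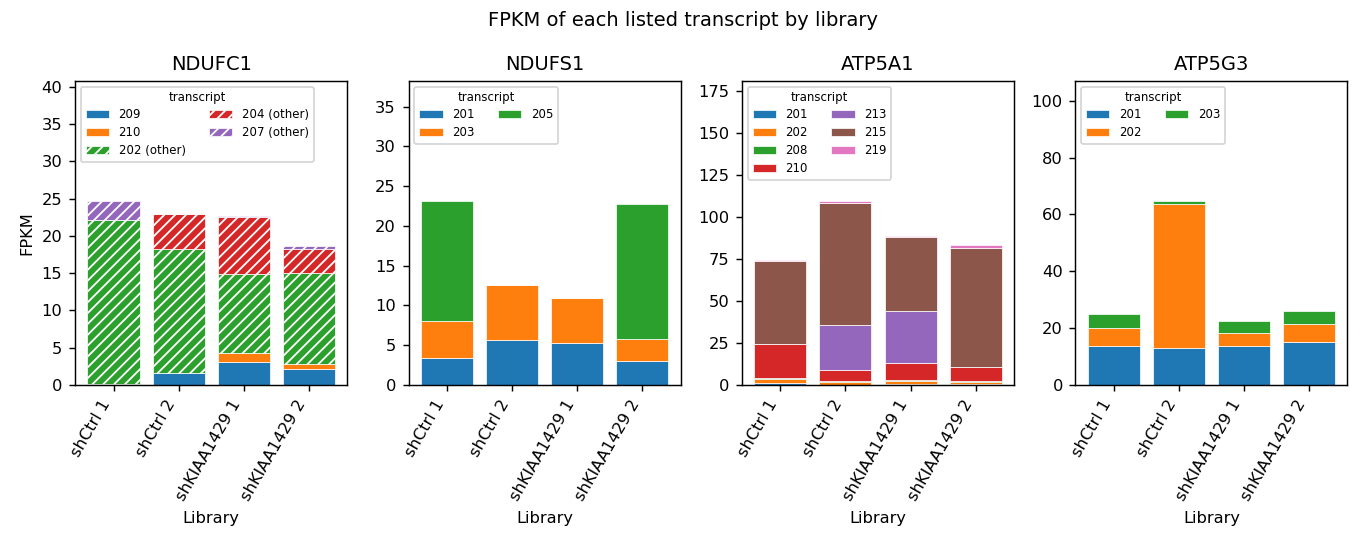
FPKM (vertical axis) of each listed transcript of NDUFC1, NDUFS1, ATP5A1 and ATP5G3, stacked by library, with hatching for transcripts that are not annotated as protein-coding. NDUFS1-205 and ATP5A1-213 are near 0 in 2 libraries each, ATP5G3-202 reaches 50.6 in shCtrl replicate 2, and hatched transcripts make up most of NDUFC1.

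Nuclear members are known targets of the factors NRF1, the ETS factors of the GABP kind and YY1. Promoters of 300 bases (250 before and 50 after the start) were found in RefSeq for 59 of 75 nuclear members. The letters GCGCATGC, for NRF1, stood on either strand in 11 of the 59 (18.6%), against 3.27% of all 27305 promoters and 4.26% of those of protein-coding genes. CCGGAAGT, for ETS factors, stood in 8 (13.6%, against 4.44% and 6.19%), and ATGGCGGC, for YY1, in 11 (18.6%, against 3.21% and 4.49%). The strands of the NRF1 letters can overlap each other, and the letters of different motifs did not overlap in the promoters shown. COX6A1, the most abundant nuclear member, and COX5B, whose promoter holds NRF1 and ETS letters, are shown with the matches in capitals (RefSeq, GRCh38.p14, a later build than that of the files). COX6A1 lies at chr12:120437863-120438162 and COX5B at chr2:97645812-97646111, both on the plus strand.
COX6A1: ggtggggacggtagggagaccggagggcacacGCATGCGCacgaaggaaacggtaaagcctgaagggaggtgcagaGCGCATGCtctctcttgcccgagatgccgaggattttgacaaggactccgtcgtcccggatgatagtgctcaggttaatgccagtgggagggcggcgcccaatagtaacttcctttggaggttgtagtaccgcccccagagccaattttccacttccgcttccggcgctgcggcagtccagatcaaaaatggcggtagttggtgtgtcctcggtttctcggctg
COX5B: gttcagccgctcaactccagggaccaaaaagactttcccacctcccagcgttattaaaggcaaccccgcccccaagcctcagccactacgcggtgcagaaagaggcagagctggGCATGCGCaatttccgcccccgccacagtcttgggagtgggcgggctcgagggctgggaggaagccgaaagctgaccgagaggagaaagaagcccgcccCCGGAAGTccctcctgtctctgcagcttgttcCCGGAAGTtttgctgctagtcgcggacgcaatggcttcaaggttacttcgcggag
A match is a description of letters and shows no binding, and the levels of these 2 genes had overlapping groups. NRF1 itself measured 5.18, 4.84, 5.74 and 7.62 FPKM (log2 fold change 0.34, SE 0.18, adjusted p = 0.923 in limma), with both shKIAA1429 libraries above both controls, and YY1 measured 15.4, 20.1, 12.8 and 18.2. Of the 9 genes tested in the list of regulators, 0 passed the thresholds, 3 were above 0 and 6 below. The list also holds ATPIF1, an inhibitor of the ATP synthase itself, which is among those above 0 at 0.0056.

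Other genes of the pathway were taken from 7 lists of 97 symbols, of which 92 were listed and 90 gene entries were tested, SCO2 standing under 2 identifiers. No gene passed the thresholds, and 5 of 90 had an unadjusted p under 0.05, 3 higher and 2 lower, a share near the 5.93% of all genes tested. COX20, a chaperone of MT-CO2, measured 4.63, 4.97, 8.81 and 8.48 FPKM, a log2 fold change of 0.73 (SE 0.14, adjusted p = 0.487 in limma). The replicates of each group lay close together, and leaving out each library gave 0.69 to 0.77. CMC1, which binds the nascent MT-CO1, measured 2.03, 1.59, 3.27 and 2.77 FPKM, a log2 fold change of 0.52. TMEM126B, a complex I assembly factor, measured 6.88, 7.12, 5.20 and 3.71 FPKM, a log2 fold change of -0.57 that became -0.37 without shKIAA1429 replicate 2. FOXRED1, at the other end of the complex I assembly factors, measured 2.44, 3.12, 5.86 and 2.97 FPKM, a log2 fold change of 0.47 (SE 0.31) with all libraries and 0.078 without shKIAA1429 replicate 1.

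Complex II links the citric acid cycle to the respiratory chain. SDHA, its flavin subunit, measured 11.7, 3.63, 30.1 and 21.2 FPKM, a log2 fold change of 1.78 (SE 0.52, adjusted p = 0.734 in limma), and the controls differed widely from each other. Without shCtrl replicate 2 the value was 1.05. The transcript SDHA-213 was listed at 0 in both controls and at 8.31 and 11.7 FPKM in shKIAA1429, and SDHA has pseudogene copies that can share its reads. SDHD, a membrane anchor, measured 27.2, 31.8, 18.4 and 21.1 FPKM, a log2 fold change of -0.55 (SE 0.15, adjusted p = 0.721 in limma). Part of this lay in transcripts listed in single controls, SDHD-202 at 6.30, 0, 0 and 0 FPKM and SDHD-205 at 0.48, 9.36, 0 and 0. SDHD-201 measured 17.4, 19.6, 13.4 and 15.0 FPKM, while SDHD-203 and SDHD-206 were higher in both shKIAA1429 libraries. SDHB measured 52.8, 60.1, 47.7 and 53.2 FPKM, and its groups overlapped. SDHC, the other anchor, measured 6.88, 6.62, 7.10 and 7.54 FPKM, just above both controls in shKIAA1429.

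Among the 22 entries of complex IV assembly factors 12 were above 0 and 10 below, and the copper chaperone SCO2 gave the lowest log2 fold change, -1.002, under 1 identifier (2.25, 14.0, 3.10 and 1.97 FPKM) and 0.57 under the other (20.3, 11.1, 21.4 and 24.4 FPKM). In shCtrl replicate 2 the first was high and the second low, so the 2 entries may share reads. Complex I assembly factors gave 5 above 0 and 9 below of 14, those of complex III 3 and 3 of 6, with BCS1L at -0.22 and LYRM7 at 0.40, and those of complex V 2 and 3 of 5, with TMEM70 at -0.35 and ATPAF1 at 0.35. Genes that replicate, transcribe and process mitochondrial DNA and RNA gave 20 of 29 below 0, against 5664 of all 10781 genes tested. Their median log2 fold change was -0.08, and 7 of 29 had both shKIAA1429 values below both controls, against 17.1% of all genes. POLRMT, the mitochondrial RNA polymerase, was one of these 7 at 22.8, 22.7, 20.3 and 18.7 FPKM (log2 fold change -0.21, SE 0.13, adjusted p = 0.936 in limma). TFAM, which packages mitochondrial DNA and starts its transcription, measured 6.48, 8.22, 6.003 and 8.28 FPKM and LRPPRC, which stabilises mitochondrial messages, 33.3, 31.3, 30.9 and 31.8. Both had overlapping groups, and the extremes of the list were KIAA0391 at -0.47 and MTERF4 at 0.41.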

How the data were processed

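RNA-seq libraries of 4 samples were analysed, 2 shCtrl and 2 shKIAA1429, grouped by their titles. By the study's methods, reads were aligned with TopHat, and the submitters' processing notes name hg19 and Bowtie2 2.1.0. The deposited values are FPKM per transcript, computed by the authors with a tool not given in the sources used here, as are the strand rule and the depth. Here FPKM of protein-coding transcripts were added per gene identifier. How reads were divided among overlapping transcripts is not stated, and FPKM is relative, so a few abundant RNAs move all values. Genes reaching an FPKM of 1 in 2 samples or more were compared on log2(FPKM + 1), which understates changes of low genes, with limma 3.58.1 in R 4.3.3 (lmFit, eBayes with trend, 2.639 prior degrees of freedom, two-sided, Benjamini-Hochberg over 10781 genes). Thresholds were an adjusted p below 0.05 with a log2 fold change beyond 1 in either direction.

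Members and gene lists were chosen with earlier results of these data known. Genes named were all mitochondrial members, the catalytic or defining nuclear subunits, paralog sets, the largest changes and the highest and lowest levels per complex, members with an unadjusted p under 0.05, and in the other lists the largest changes and those with such a p. Genes named beyond this rule (NDUFB7, COX6C, COX7C, ATP5F1, NDUFA6, NDUFC2, SDHB, SDHC, POLRMT, TFAM, LRPPRC) were chosen after their values were seen. The pool of mitochondrial genes of complexes III, IV and V was not among the planned sets. The values of 1 gene that this rule names are not reported here. The fit was tested on simulated data. Alternatives were upper quartile scaling, other filters and pseudocount, all listed transcripts, mitochondrial rows left out, genes that are not subunits left out, the replicate number as a block, and leaving out each replicate. The sum of nuclear members was also taken with libraries scaled to equal summed FPKM. Figures were drawn with matplotlib 3.10.9.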

Additional observations from a re-analysis of the deposited data

How the results depend on the processing

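No member passed the thresholds under any alternative run, and over all genes 0 to 1 did when replicates were left out, the 1 without shCtrl replicate 1. The number of members with an unadjusted p under 0.05, 2 as reported, was 0 where each sample had to reach 1 FPKM, 1 when 0.1 was added before the log, 1 with all listed transcripts, 1 with mitochondrial rows left out, and 1 to 13 without single replicates. The 13, 8 of them mitochondrial, came without shKIAA1429 replicate 2, where shKIAA1429 replicate 1 stood alone and was assumed to vary like the controls. With the replicate block it was 4 of 86 (ATP5F1, MT-ATP6, MT-CYB and NDUFA3). Over all 10781 genes tested, 1161 had an unadjusted p under 0.05 with the block, against 639 without it. The rise was thus not particular to members. The labels name no batch shared by same-numbered samples. With 2 pairs the deviations from the group means correlated by 0.29 over genes. Same-numbered libraries also had the highest correlations of all pairs, 0.973 and 0.972. Whether they were paired was not tested. The block changed no call at the adjusted threshold.

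The median log2 fold change of nuclear members, -0.02, became 0.0028 with upper quartile scaling and -0.067 with mitochondrial rows left out, and ranged from -0.065 to 0.043 over single replicates left out. Their summed FPKM difference, -37.0, ranged from -242.6 to 168.5 over single replicates left out. It was -185.5 with libraries scaled to equal summed FPKM and -157.8 with mitochondrial rows left out, and the groups overlapped in both. The mitochondrial share difference of 0.601 percentage points ranged from -0.023 to 1.22, the lowest without shKIAA1429 replicate 1. Directions of single members also turned: with all listed transcripts ATP5F1 was 0.19, NDUFC1 -0.20 and ATP5B -0.27, the 3 members of 86 that turned, and ATP5B was -0.041 with mitochondrial rows left out. Leaving out single replicates gave -0.13 to 0.13 for MT-ND1, -0.13 to 0.36 for MT-ND3, -0.089 to 0.18 for MT-ND4, -0.055 to 0.14 for MT-ND5, -0.18 to 0.076 for COX7A2 and -0.016 to 0.76 for NDUFA4L2, the end past 0 coming without shKIAA1429 replicate 1. It gave -0.20 to 0.14 for MT-ND4L, above 0 without shKIAA1429 replicate 2, and -0.023 to 0.17 for MT-ND6, below 0 without shCtrl replicate 1. MT-ND1 was also below 0 without shCtrl replicate 1, and MT-ND4 without shCtrl replicate 2. ATP5B ranged from -0.28 to 0.28. Among genes of the other lists, for which these alternatives were chosen after seeing the data, SCO2 ranged from -2.11 to 0.10 under the identifier lower in shKIAA1429 and KIAA0391 from -1.04 to 0.096, both above 0 without shCtrl replicate 2, MTERF4 from -0.13 to 0.95, below 0 without shKIAA1429 replicate 2, and YY1 from -0.43 to 0.047, above 0 without shKIAA1429 replicate 1. The cause of these turns was not tested. Depth is unknown, so the smallest difference detectable cannot be given.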
